A study of Mus musculus with 4 samples.

Results

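Genes that mark the maturity of pancreatic beta cells, or that divide these insulin-secreting cells into subtypes, were followed in RNA of mouse islets, the small groups of endocrine cells in the pancreas. The 8 genes, Ucn3, Cfap126, St8sia1, Cd9, Cd81, Aldh1a3, Trpm5 and Cd24a, were taken by their symbols from a table of 55536 genes, and each matched 1 row. Islets came from male C57BL/6 mice aged 8 weeks. There were 2 insulin-depleted libraries, in which a commercial panel removed insulin sequences during preparation of the sequencing library, and 2 non-depleted libraries made from polyadenylated RNA without that step. The labels call the libraries of a group biological replicates 1 and 2 but give no animal for either, and all column names of the count table carry the same pair of codes. Replicates may therefore share tissue, so a p-value reflects the variation among 4 libraries, which may be technical. The headers of the non-depleted columns also hold a tag that reads as size selection, so a difference in size selection cannot be told apart from depletion.

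A beta cell is born immature and gains its full response to glucose after birth, and in diabetes it can lose part of that state, which is called dedifferentiation. Not all beta cells of a healthy islet are alike either: surface proteins and polarity genes separate cells that divide more readily from cells that secrete more. In bulk RNA of whole islets, fewer cells that carry a marker and less marker RNA per cell cannot be told apart.

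The libraries held 19316173 and 65030111 counts in insulin-depleted replicates 1 and 2, and 50605417 and 60528485 in non-depleted replicates 1 and 2. Ins1 and Ins2, the mouse insulin genes and the target of the depletion, took 0.195 and 0.264% of counts in the insulin-depleted libraries, against 4.14 and 3.97% in the non-depleted libraries. Levels are given as CPM, counts-per-million values taken over each library's total without Ins1 and Ins2, so that the removed insulin does not itself raise the other genes. A count of 3 in a library, taken as the floor of detection, corresponds to 0.0463 to 0.156 CPM. All 10 beta-cell markers found lay above that floor, so beta-cell RNA was present as the islet label implies. The amylin gene Iapp was by far the highest, at 18445 and 17551 CPM in insulin-depleted and 18761 and 17396 CPM in non-depleted libraries. G6pc2 came next at 582 to 595 CPM across libraries, and Slc2a2 was lowest at 25.1 to 35.3 CPM. The 15 acinar markers, genes of the digestive tissue around islets, summed to 15171 and 6271 CPM in insulin-depleted replicates 1 and 2, against sums of 15130 and 6256 CPM in non-depleted replicates 1 and 2. Libraries numbered 2 thus held far less acinar RNA than libraries numbered 1 in both groups.

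The sequences of 2 promoters are shown because they held the fewest and the most CG dinucleotides among the 6 members with a promoter in the table used, which gave none for Aldh1a3 and Cd24a. The window runs from 250 bases before to 50 bases after the annotated start (RefSeq, GRCm38.p6), and capitals mark CG dinucleotides. Promoters rich in CG are common among genes active in many cell types, while cell-type restricted genes often lack them. Ucn3 lies at chr13:3945300-3945599 on the minus strand and Cd81 at chr7:143052500-143052799 on the plus strand.
Ucn3: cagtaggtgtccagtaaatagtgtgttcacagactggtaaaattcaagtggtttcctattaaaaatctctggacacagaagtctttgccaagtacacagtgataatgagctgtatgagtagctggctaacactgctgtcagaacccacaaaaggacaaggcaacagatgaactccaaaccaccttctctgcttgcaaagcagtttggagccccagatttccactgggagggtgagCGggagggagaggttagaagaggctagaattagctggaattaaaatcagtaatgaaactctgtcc
Cd81: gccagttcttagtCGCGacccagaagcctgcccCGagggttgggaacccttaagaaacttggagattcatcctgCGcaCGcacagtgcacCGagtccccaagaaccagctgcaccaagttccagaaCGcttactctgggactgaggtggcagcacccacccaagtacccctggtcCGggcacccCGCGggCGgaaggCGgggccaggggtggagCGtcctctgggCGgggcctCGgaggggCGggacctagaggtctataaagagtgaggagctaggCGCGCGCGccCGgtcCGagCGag
The Ucn3 window held 1 CG and the Cd81 window 23. Among 32851 promoter windows of 300 bases, with a median of 7 CG, 94.6% held at least as many CG as Ucn3 and 21.5% at least as many as Cd81. The counts for other windows were 18 in Cd9, 19 in St8sia1, 5 in Trpm5 and 12, 3 and 3 in the 3 annotated starts of Cfap126. The letters TAAT, or ATTA on the other strand, the core read by homeodomain proteins, began at 5 positions in the Ucn3 window and at 0 in that of Cd81. At least 1 such match stood in 58.0% of all windows, and the share with as many as Ucn3 was not computed. The other windows held 1 in Cd9, 1 in Trpm5, 0 in St8sia1 and 1, 1 and 0 in those of Cfap126. G and C made up 44.7% of bases in the Ucn3 window and 65.7% in that of Cd81, which alone changes how often TAAT occurs.

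The marker of mature secretion came first. Ucn3 encodes urocortin 3, a peptide of the corticotropin-releasing factor (CRF) family that mouse beta cells release with insulin and that acts on delta cells to raise somatostatin. In mice it appears as beta cells mature. The gene (ENSMUSG00000044988) spans 3940688 to 3945349 on the minus strand of chromosome 13 in GRCm38, has 1.48 kb of exon and overlaps no other annotated gene. Ucn3 had 89.4 and 101 CPM in insulin-depleted replicates 1 and 2, against 91.8 and 99.8 CPM in non-depleted replicates 1 and 2. The groups overlapped, and it was the steadiest of the 8 genes. The log2 fold change, insulin-depleted over non-depleted, was -0.013 (SE 0.090), and the 95% interval ran from 0.848- to 1.16-fold (edgeR quasi-likelihood test, adjusted p = 1.00).

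Cfap126, also called Flattop, encodes a protein of cilia and planar cell polarity. In mice its activity separates mature beta cells from less mature ones that divide more. The gene (ENSMUSG00000026649, chromosome 1, 171113918 to 171126967, plus strand, 1.77 kb of exon) was sparse, with 124 and 554 counts in insulin-depleted replicates 1 and 2 and 328 and 563 counts in non-depleted replicates 1 and 2. These correspond to 6.43 and 8.54 CPM in insulin-depleted and 6.76 and 9.69 CPM in non-depleted libraries. Its log2 fold change was -0.13 (SE 0.24), the furthest from 0 among the members, and the interval ran from 0.607- to 1.38-fold (edgeR adjusted p = 1.00).

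St8sia1 and Cd9 encode the antigens that divide human beta cells into subtypes, and that use is known from human islets. St8sia1 encodes GD3 synthase, a sialyltransferase of ganglioside synthesis (ENSMUSG00000030283, chromosome 6, 142821545 to 142964452, minus strand, 9.34 kb of exon). It had 95.1 and 116 CPM in insulin-depleted replicates 1 and 2, against 89.6 and 119 CPM in non-depleted replicates 1 and 2. The log2 fold change was 0.016 (SE 0.15), within 0.774- to 1.32-fold (edgeR adjusted p = 1.00). Cd9 encodes a tetraspanin, a membrane organiser with 4 membrane-spanning stretches found in many cell types (ENSMUSG00000030342, chromosome 6, 125460266 to 125494791, minus strand, 2.04 kb of exon). Cd9 had 102 and 68.5 CPM in insulin-depleted replicates 1 and 2, against 102 and 66.7 CPM in non-depleted replicates 1 and 2. The libraries numbered 1 were the high ones in both groups. The groups overlapped, with a log2 fold change of 0.0011 (SE 0.27) and an interval of 0.624- to 1.61-fold (edgeR adjusted p = 1.00).

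Cd81 encodes a second tetraspanin, which in mice marks immature and stressed beta cells (ENSMUSG00000037706, chromosome 7, 143052739 to 143067934, plus strand, 2.88 kb of exon). Cd81 had 69.2 and 80.4 CPM in insulin-depleted replicates 1 and 2, against 72.0 and 83.1 CPM in non-depleted replicates 1 and 2. Its log2 fold change was -0.053 (SE 0.11), within 0.798- to 1.16-fold (edgeR adjusted p = 1.00). Aldh1a3 encodes a retinaldehyde dehydrogenase that accumulates in failing, dedifferentiated beta cells of diabetic mice (ENSMUSG00000015134, chromosome 7, 66390890 to 66427517, minus strand, 4.62 kb of exon). It was the scarcest member, with 58 and 499 counts in insulin-depleted replicates 1 and 2 and 179 and 382 counts in non-depleted replicates 1 and 2. Its level was 3.01 and 7.69 CPM in insulin-depleted libraries, against 3.69 and 6.57 CPM in non-depleted libraries. The log2 fold change of 0.092 (SE 0.48) had the widest interval, 0.464- to 2.45-fold (edgeR adjusted p = 1.00).

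Trpm5 encodes a calcium-activated cation channel of taste cells, tuft cells and beta cells, where it takes part in glucose-driven electrical activity. The gene (ENSMUSG00000009246, chromosome 7, 143069153 to 143094642, minus strand, 6.40 kb of exon) had 28.0 and 20.5 CPM in insulin-depleted replicates 1 and 2, against 26.4 and 20.7 CPM in non-depleted replicates 1 and 2. Its log2 fold change was 0.029 (SE 0.21), within 0.713- to 1.46-fold (edgeR adjusted p = 1.00). Of the tuft-cell markers, Pou2f3 and Gfi1b, which define that cell type, lay between 0 and 0.0688 CPM in all 4 libraries. The list's other genes, Dclk1 and Avil, lay between 19.3 and 23.5 CPM and between 7.66 and 13.8 CPM over the 4 libraries. Cd24a encodes a small, heavily glycosylated surface protein of progenitor, epithelial and immune cells (ENSMUSG00000047139, chromosome 10, 43578284 to 43584265, plus strand, 2.58 kb of exon). It had the highest CPM of the members in the libraries numbered 1, and St8sia1 had the highest in those numbered 2. Cd24a had 152 and 113 CPM in insulin-depleted replicates 1 and 2 and 153 and 116 CPM in non-depleted replicates 1 and 2. The log2 fold change was -0.026 (SE 0.20), within 0.696- to 1.39-fold (edgeR adjusted p = 1.00).

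**Figure D1:**
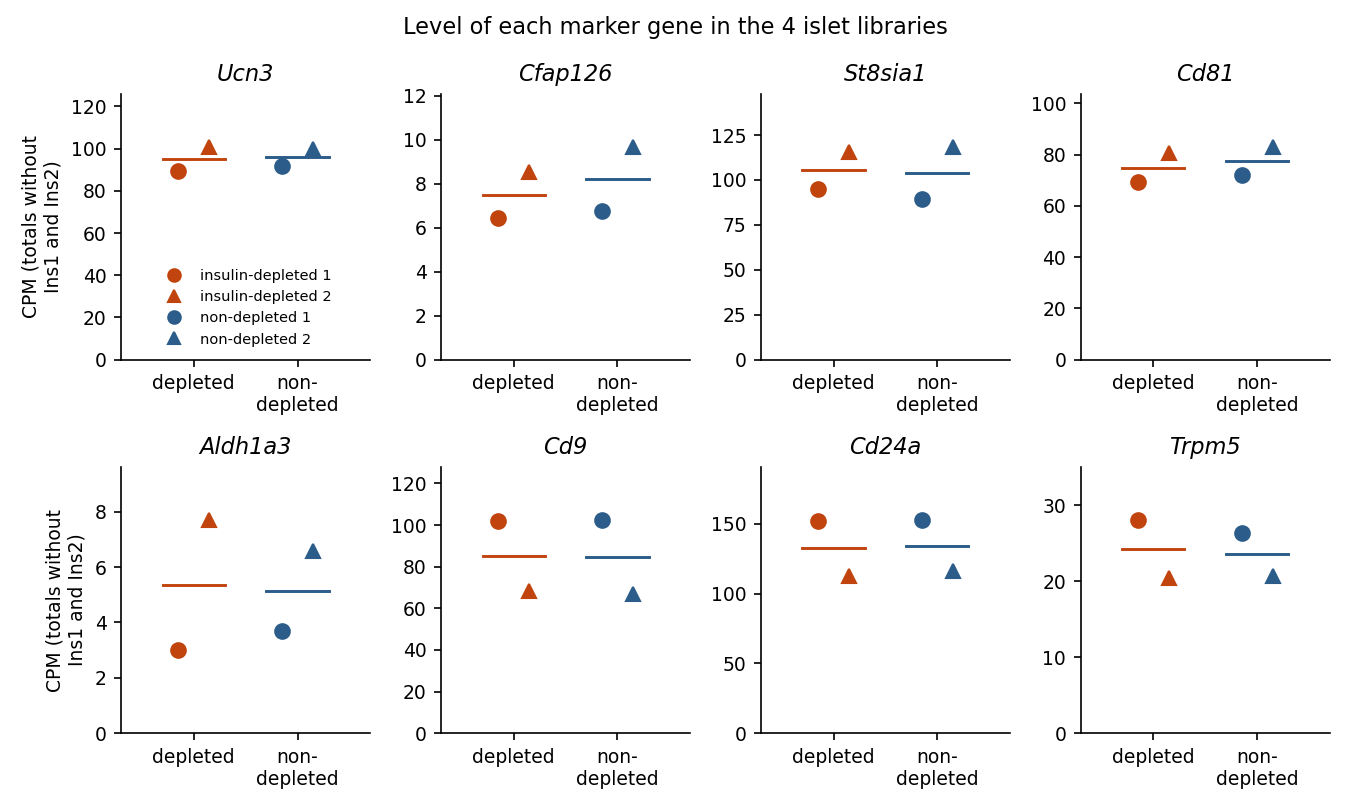
CPM of each gene (vertical axes, from 0, each gene on its own scale) in the insulin-depleted and the non-depleted group, with circles for replicate 1, triangles for replicate 2 and a line at each group's mean of 2 libraries. The groups overlap for all 8 genes, and the triangle lies above the circle in both groups for Ucn3, Cfap126, St8sia1, Cd81 and Aldh1a3 and below it for Cd9, Cd24a and Trpm5.

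No member passed the test between groups. All 8 passed the filter on low counts, and 0 were called at an adjusted p under 0.05 by edgeR, where 0.0101% of all 19723 genes tested were called, namely Ins1 and Ins2. DESeq2, run on the 30297 genes with any count, called 0 members and 0.0066% of those genes, which is also 2 genes. On the 19723 genes, limma-voom called 0 members and 0.0101%. At an unadjusted p under 0.05 edgeR gave 0 members, against 0.416% of all genes tested. DESeq2 gave 0 members against 0.185% of its 30297 genes, and limma-voom 0 members against 0.603% of the 19723. The smallest unadjusted p was 0.612, that of Cfap126. Members split evenly, with 4 log2 fold changes above 0 and 4 below and a median of -0.0057, beside a median of -0.0025 over the 19721 genes tested other than Ins1 and Ins2, members included. The pair of insulin-depleted libraries exceeded the pair of non-depleted ones for 0 members and fell short of it for 0, where 10.2% and 9.33% of all genes tested did so. These results do not show that the levels were equal. The intervals above bound the differences on group alone, a fit in which the difference between replicate numbers counts as error.

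**Figure D2:**
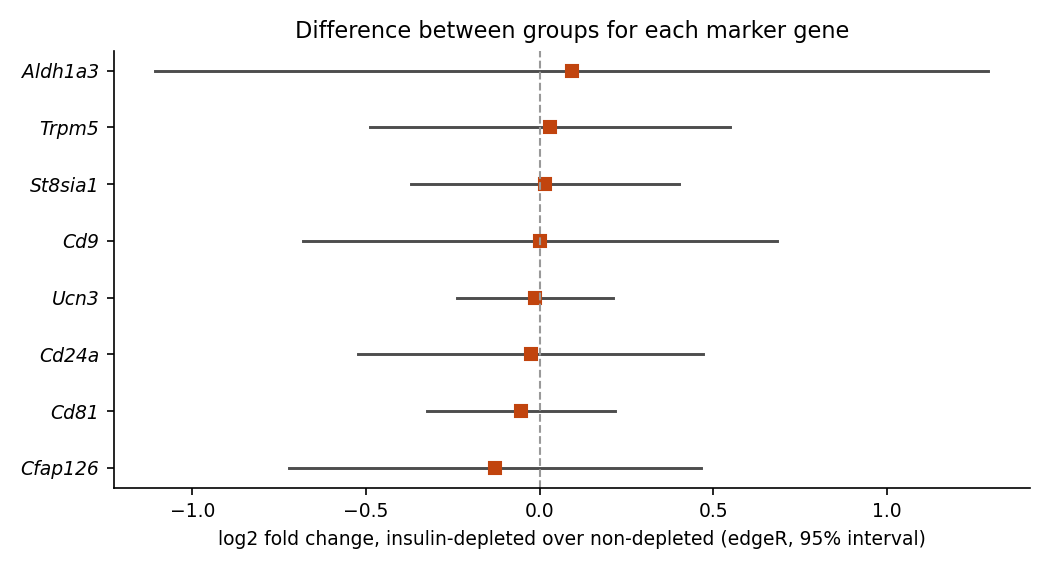
Log2 fold change of each gene, insulin-depleted over non-depleted, from edgeR (squares) with its 95% interval (lines). All intervals include 0, the narrowest being that of Ucn3 and the widest that of Aldh1a3.

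Levels of different genes were compared per kb of exon, since longer transcripts collect more reads. Ucn3 led with 64.4 ± 5.50 CPM per kb in insulin-depleted and 64.8 ± 3.82 CPM per kb in non-depleted libraries (SD, n = 2 each). Cd24a followed with 51.4 ± 10.8 and Cd9 with 41.7 ± 11.5 CPM per kb in insulin-depleted libraries, against 52.1 ± 9.94 and 41.3 ± 12.3 in non-depleted libraries (SD, n = 2 each). Cd81 had 26.0 ± 2.76 and St8sia1 11.3 ± 1.55 CPM per kb in insulin-depleted libraries, against 26.9 ± 2.71 and 11.1 ± 2.19 in non-depleted libraries. At the low end, insulin-depleted libraries had 4.22 ± 0.841 CPM per kb of Cfap126, 3.79 ± 0.833 of Trpm5 and 1.16 ± 0.718 of Aldh1a3, against 4.64 ± 1.17, 3.68 ± 0.623 and 1.11 ± 0.441 in non-depleted libraries (SD, n = 2 each). The order was the same in both groups. Over the 4 libraries the ranges of neighbours overlapped for Cd24a and Cd9 and for Cfap126 and Trpm5, and the 5 other pairs of neighbours did not overlap. Among the same 19721 genes, Ucn3 stood at the 97.2nd percentile per kb and Aldh1a3 at the 35.6th. St8sia1, which has the second highest mean CPM of the members and 9.34 kb of exon, stood at the 77.3rd. The lead of Ucn3 rests on the length used: per kb of the longest annotated transcript, Cd24a had 73.0, Cd9 69.3 and Ucn3 64.4 CPM per kb in insulin-depleted libraries, against 74.0, 68.8 and 64.8 in non-depleted libraries, and the ranges of these 3 overlapped.

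**Figure D3:**
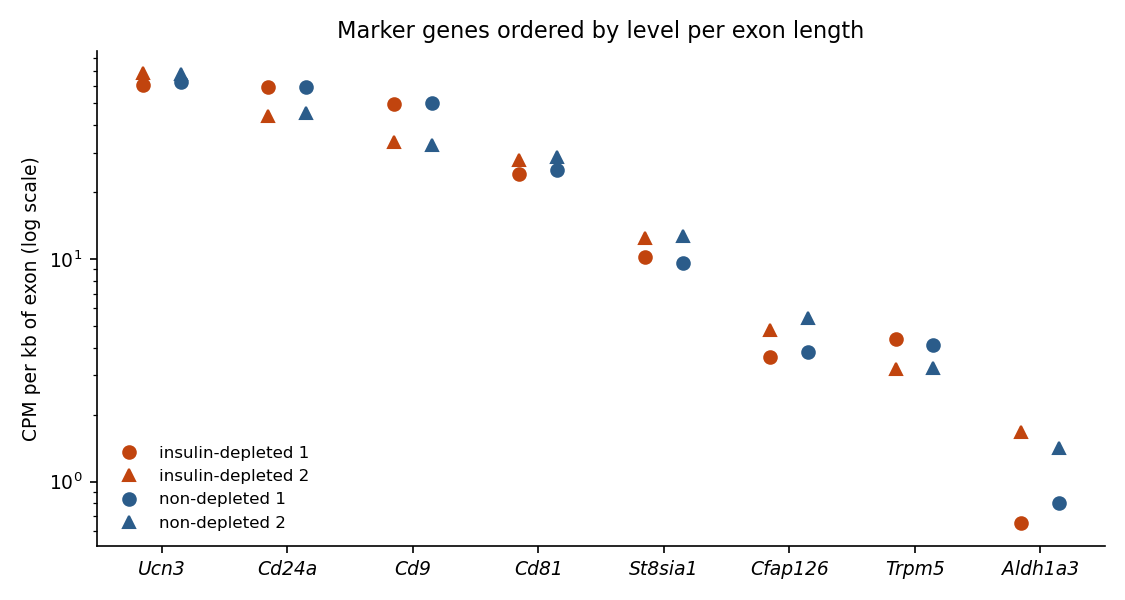
CPM per kb of exon (vertical axis, log scale) of each gene in the 4 libraries, insulin-depleted left of non-depleted, with circles for replicate 1 and triangles for replicate 2. Levels run over more than an order of magnitude with the same order in both groups, and neighbours overlap only for Cd24a with Cd9 and for Cfap126 with Trpm5.

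Members differed more between replicate numbers than between groups, as most genes did. In all 8 genes, the log2 ratio of the library numbered 2 over the library numbered 1 was further from 0, in each group, than the log2 fold change between groups, and so it was in 70.4% of all genes averaging 5 CPM or more. Both libraries numbered 2 lay above both numbered 1 for Ucn3, Cfap126, St8sia1, Cd81 and Aldh1a3, and below for Cd9, Cd24a and Trpm5. So 5 members were above and 3 below, beside 34.9% and 26.7% of all genes tested. The labels do not state that libraries of the same number share an animal or RNA, and each group gives only 1 such ratio, so these are values without a test. Aldh1a3 stood out, at 2.56 times in insulin-depleted libraries (exact counting interval 1.73 to 3.89, on counts divided by 2 because most low counts were even) and 1.78 times in non-depleted libraries (1.39 to 2.33). Cfap126 was at 1.33 times (1.01 to 1.78) in insulin-depleted and 1.43 times (1.18 to 1.74) in non-depleted libraries. St8sia1, Cd81 and Ucn3 were at 1.22, 1.16 and 1.13 times in insulin-depleted libraries, against 1.32, 1.15 and 1.09 times in non-depleted libraries. Cd9 went the other way, at 0.674 times (0.625 to 0.728) in insulin-depleted and 0.652 times (0.614 to 0.692) in non-depleted libraries. Trpm5 and Cd24a were at 0.731 and 0.741 times in insulin-depleted libraries, against 0.786 and 0.762 times in non-depleted libraries. These intervals cover counting error only.

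Ratios between members therefore depended on the replicate number. Cd9, per kb, was 2.07 and 1.20 times as high as Cd81 in insulin-depleted replicates 1 and 2, and 2.00 and 1.13 times as high in non-depleted replicates 1 and 2. Ucn3, per kb, exceeded Aldh1a3 by 92.8 and 41.0 times in insulin-depleted replicates 1 and 2, and by 77.7 and 47.4 times in non-depleted replicates 1 and 2. Both ratios were higher in the libraries numbered 1. Cd24a over Ucn3 was 0.976 and 0.641 in insulin-depleted replicates 1 and 2, against 0.952 and 0.667 in non-depleted replicates 1 and 2. Ucn3 over Cfap126 was 16.7 and 14.2 in insulin-depleted replicates 1 and 2, against 16.3 and 12.4 in non-depleted replicates 1 and 2. These were also higher in the libraries numbered 1, while the 2 remaining ratios computed were lower there. St8sia1 over Cd9 was 0.205 and 0.369 in insulin-depleted replicates 1 and 2, against 0.192 and 0.389 in non-depleted replicates 1 and 2. Cd81 over Trpm5 was 5.49 and 8.73 in insulin-depleted replicates 1 and 2, against 6.07 and 8.90 in non-depleted replicates 1 and 2.

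Markers of other cells moved with the replicate number too. Of 12 acinar markers averaging 5 CPM or more, 1 was higher in the library numbered 2 in each group, and their median log2 ratio of 2 over 1 was -1.30 in both groups. Of 9 ductal markers, 2 were higher in insulin-depleted replicate 2 and 3 in non-depleted replicate 2, with median log2 ratios of -0.35 in insulin-depleted and -0.30 in non-depleted libraries. The ductal markers summed to 2053 and 1820 CPM in insulin-depleted replicates 1 and 2, against sums of 2056 and 1832 CPM in non-depleted replicates 1 and 2. No acinar or ductal marker was at 0 in all libraries. Of 10 beta-cell markers 6 were higher in the library numbered 2 in each group, with medians of 0.10 in insulin-depleted and 0.15 in non-depleted libraries. Their summed level went the other way. It was 20158 and 19441 CPM in insulin-depleted replicates 1 and 2, and 20461 and 19301 CPM in non-depleted replicates 1 and 2. Iapp made up most of each sum and was lower in the library numbered 2 in each group. For comparison, the log2 ratios of Cd9, Trpm5 and Cd24a were -0.57, -0.45 and -0.43 in insulin-depleted and -0.62, -0.35 and -0.39 in non-depleted libraries. The tuft-list genes other than Trpm5 that averaged 5 CPM or more, Dclk1 and Avil, were both lower in the libraries numbered 2, with medians of -0.50 in insulin-depleted and -0.27 in non-depleted libraries. Pou2f3 and Gfi1b lay at or near the floor of detection, and the presence of tuft cells was not tested. Medians were also below 0 in both groups for alpha, Schwann, and stellate and fibroblast markers, between -0.19 and -0.089 in insulin-depleted and between -0.13 and -0.039 in non-depleted libraries. Of 10 endothelial markers, 9 were higher in the library numbered 2 in each group, with medians of 0.13 in insulin-depleted and 0.14 in non-depleted libraries. The part of RNA from these other cells in the member values was not tested. Over the 11595 genes averaging 5 CPM or more, the median log2 ratio was 0.023 in insulin-depleted and 0.029 in non-depleted libraries. Aldh1a3 stood at percentile 99.8 in insulin-depleted and 99.4 in non-depleted libraries, and Cd9 at percentile 2.03 in insulin-depleted and 1.63 in non-depleted libraries. Aldh1a3 averaged 5.24 CPM, just above the limit of 5 CPM, so most genes it was ranked among had more counts.

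**Figure D4:**
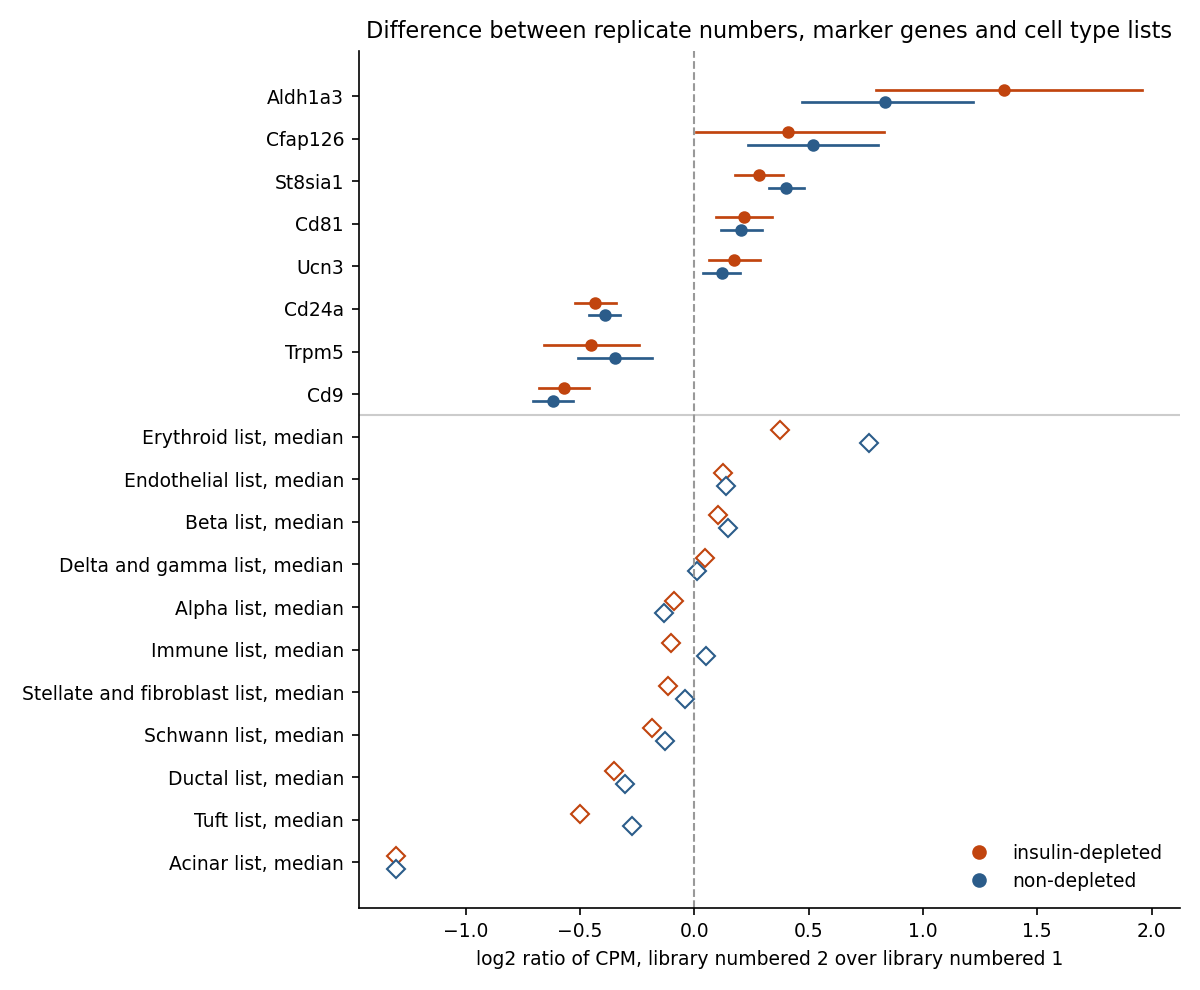
Log2 ratio of CPM, library numbered 2 over library numbered 1, in insulin-depleted and non-depleted libraries. Points are the 8 genes with exact 95% counting intervals, and open diamonds are medians of the 11 cell type lists, of which the erythroid one rests on 1 gene and the tuft one on 2. Cd9, Trpm5 and Cd24a lie below 0 and the 5 other genes above 0, and among the lists the acinar, tuft, ductal, Schwann, stellate and fibroblast, and alpha medians lie below 0 in both groups.

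The genes whose profile over the 4 libraries was nearest to each member were sought among the other members and the listed genes averaging 5 CPM or more, by Euclidean distance of centred log2 CPM. Both Cd24a and Trpm5 were nearest to the keratin gene Krt8 of the ductal list (distances 0.037 and 0.060). Cd9 was nearest to the ductal-list transcription factor gene Onecut2 (0.10), Ucn3 to the endothelial receptor gene Flt1 (0.013) and Cd81 to the synaptotagmin gene Syt7 of the maturation list (0.031). St8sia1 was nearest to Wnt4 (0.040), Cfap126 to the channel gene Trpm2 (0.081) and Aldh1a3 to Wnt5b (0.36). With 4 libraries such profiles hold mainly the difference between replicate numbers.

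Genes of the pathways around the members also gave no call. Over 9 lists, 151 entries were tested, with 78 log2 fold changes above 0, 73 below and 0 called (edgeR, adjusted p under 0.05), and DESeq2 and limma-voom also called 0. Over all genes tested edgeR called 0.0101%. At an unadjusted p under 0.05, which 0.416% of all genes passed, there was 1 entry, the cold-sensing channel gene Trpm8, named after its value was seen. It had 1.50 and 1.20 CPM in insulin-depleted replicates 1 and 2, against 2.58 and 2.00 CPM in non-depleted replicates 1 and 2 (log2 fold change -0.78, edgeR adjusted p = 1.00).

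Of the 6 other genes of the CRF family and its receptors, 4 were tested, 2 above and 2 below 0. The receptor gene Crhr2, whose product binds urocortin 3, had 0.363 and 0.678 CPM in insulin-depleted and 0.639 and 0.516 CPM in non-depleted libraries, and Crhr1 had 1.82 and 1.60 CPM in insulin-depleted against 1.11 and 1.36 CPM in non-depleted libraries. Both lay far below Ucn3, and Crh was at 0 in all 4 libraries. The 20 planar cell polarity genes, related to Cfap126 by function, had 12 above and 8 below 0 with a median of 0.018. Celsr3, a polarity cadherin gene, and the Wnt receptor gene Fzd3 were the most abundant, with log2 fold changes of 0.022 and 0.049. The lowest and highest were Dvl2 at -0.13 and Ankrd6 at 0.21.

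Of 26 other tetraspanins and their partners, 12 lay above and 14 below 0, with a median of -0.0018. Cd63, a tetraspanin of lysosomes and granules, had 1352 and 1447 CPM in insulin-depleted and 1366 and 1487 CPM in non-depleted libraries. The integrin gene Itgb1 had a log2 fold change of 0.0070, and the extremes at 5 CPM or more were Ptgfrn, a partner of Cd9 and Cd81, at -0.13 and Tspan33 at 0.068. The 20 ganglioside genes, the pathway of St8sia1, had 11 above and 9 below 0 with a median of 0.016. St3gal5, which makes the substrate of GD3 synthase, had 62.3 and 69.3 CPM in insulin-depleted and 63.9 and 74.4 CPM in non-depleted libraries, the lowest log2 fold change of that list at -0.074. St3gal2 had the highest at 0.17, and the abundant genes B4galt6 and Hexa had -0.0068 and -0.068.

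Among 17 tested retinoid genes, 11 lay above and 6 below 0 with a median of 0.046. The retinoid receptor gene Rxra and the retinol carrier gene Rbp4 were the most abundant, at -0.063 and -0.025, and the range at 5 CPM or more ran from -0.11 for the retinol dehydrogenase gene Rdh10 to 0.15 for Cyp26b1, which breaks down retinoic acid. Of 12 tested TRPM and sweet taste genes, 5 were above and 7 below 0. The calcium release channel gene Itpr3 and the channel gene Trpm7 led this list at -0.0082 and -0.0022, and at 5 CPM or more Itpr2 was lowest at -0.13 and Trpm1 highest at 0.15. Of 8 tested genes for ligands of Cd24 and related surface proteins, 4 were above and 4 below 0. Hmgb1, a nuclear protein gene that was also the highest at 5 CPM or more with 0.027, and the progenitor antigen gene Prom1 at 0.021 were the most abundant, and the adhesion gene L1cam was lowest at -0.095.

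The 22 tested genes of beta-cell maturation had 12 above and 10 below 0, with a median of 0.0014. G6pc2, a glucose-6-phosphatase gene of beta cells, had 595 and 587 CPM in insulin-depleted and 588 and 582 CPM in non-depleted libraries. Syt7, a calcium sensor gene of exocytosis, had a log2 fold change of -0.034, and the extremes were Ppargc1a at -0.22 and Ezh2 at 0.088. By replicate number, 15 of the 22 were higher in insulin-depleted replicate 2 and 14 in non-depleted replicate 2, beside 54.6% and 56.0% of all genes averaging 5 CPM or more. The 22 tested genes of the immature and dedifferentiated state had 9 above and 13 below 0, with a median of -0.012. Vim and Txnip were the most abundant at -0.020 and -0.030. At 5 CPM or more, Npy, a peptide gene of immature beta cells, was highest at 0.17 and Pdgfra lowest at -0.11. Npy had 15.6 and 5.44 CPM in insulin-depleted replicates 1 and 2 and 13.6 and 4.66 CPM in non-depleted replicates 1 and 2, the opposite direction by number from Aldh1a3. Of 17 genes of that list averaging 5 CPM or more, 8 were higher in the library numbered 2 in each group. Pax4, of the same list, was at 0 in all libraries.

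**Figure D5:**
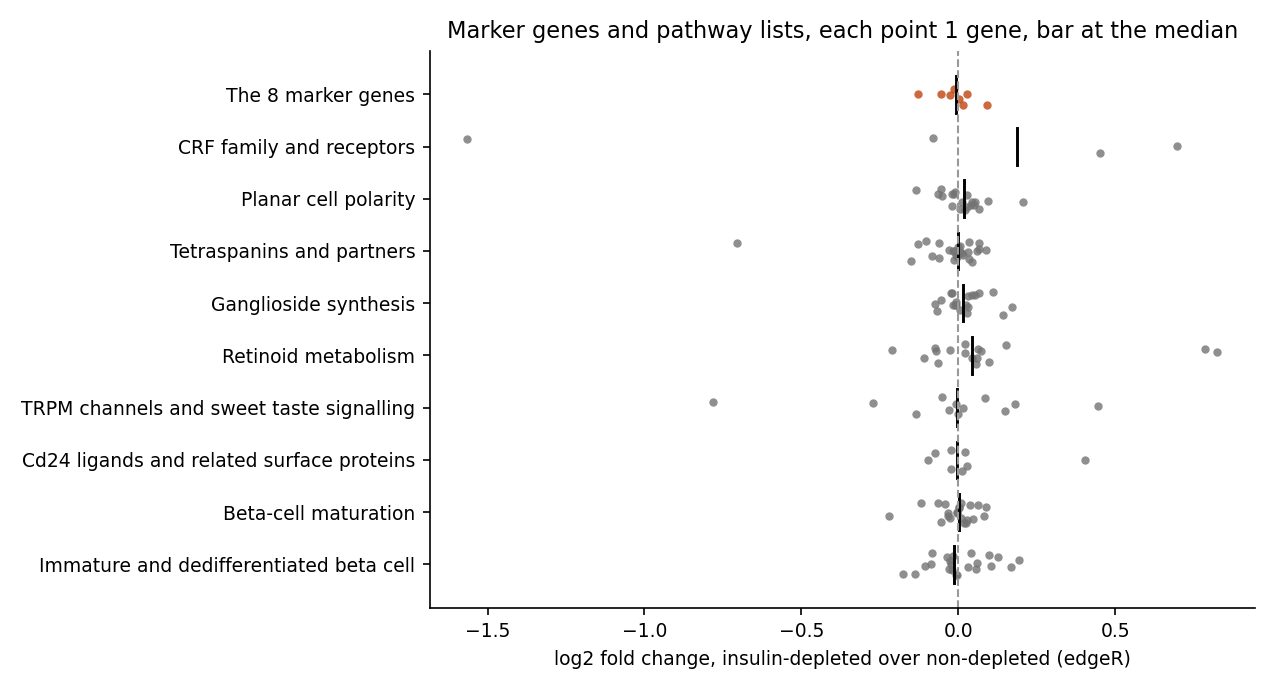
Log2 fold change, insulin-depleted over non-depleted (edgeR), of the 8 marker genes and of each tested gene of the 9 pathway lists, with a bar at each median. The marker genes lie between -0.13 and 0.092, and the points furthest from 0 belong to genes of few counts.

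Sequence was compared to see whether members resemble the depleted genes. Panels of this kind generally use CRISPR guides of 20 bases that sit beside an NGG motif, and the guides of this panel were not used here. No 31-base stretch of any member's transcripts was found in Ins1 or Ins2 transcripts, and 0 of the members' 20-base sites beside NGG matched an insulin site exactly or with 1 mismatch. The closest pairs differed at 3 bases for Trpm5, at 5 for Cfap126, Cd9, Cd81, Aldh1a3 and Cd24a, and at 6 for Ucn3 and St8sia1. The Trpm5 pair is shown as the nearest to any annotated insulin transcript. Only 1 closest pair per member was placed on the genome, though some members had more. Among the pairs placed at 5 mismatches, those of Cd9 and Aldh1a3 lie in coding sequence of both genes. Mismatched bases are in capitals and the NGG forms the last bases (GRCm38, sequences of GENCODE M21 transcripts).
Trpm5 (chr7:143079072-143079094): CCtcaagggtcaggGtcccaagg
Ins2 (chr7:142743255-142743277): GTtcaagggtcaggAtcccaggg
Cd9 (chr6:125462354-125462376): ggagcAAggaTgaaCcccAgcgg
Ins1 (chr19:52264821-52264843): ggagcTGggaGgaaGcccCgggg
Aldh1a3 (chr7:66406066-66406088): cagggTgTtCgtgGAagagcagg
Ins2 (chr7:142678863-142678885): cagggAgGtTgtgTCagagcagg
The Trpm5 site lies in non-coding sequence of a retained-intron transcript, and its Ins2 partner in non-coding sequence of exon 1 of an annotated Ins2 transcript. By the coordinates above, that exon lies far from the coding Ins2 site paired with Aldh1a3. Whether the insulin RNA of these islets holds that exon was not tested. Both sites of the Trpm5 pair are written on the strand opposite to the transcript. The Cd9 site is coding sequence of exon 5 and its Ins1 partner coding sequence of exon 2, both on the transcript strand. The Aldh1a3 site is coding sequence of exon 9, on the transcript strand, and its Ins2 partner is coding sequence of exon 3, on the opposite strand. The log2 fold changes of these 3 genes, 0.029, 0.0011 and 0.092, are those given above.

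Cd81 and Trpm5 are neighbours near Ins2 on chromosome 7. They face each other with their ends 1.22 kb apart, and lie 309 and 326 kb from the annotated Ins2 gene. That annotated span includes the distant exon 1 described above. Cd81 and Trpm5 differed in opposite directions by replicate number, as given above. Overlaps limit how far counts belong to 1 gene, since strand use in counting is not given in the sources used here. Trpm5 shares 220 exon bases with Tssc4 on the other strand, and Tssc4 had 39.2 and 36.1 CPM in insulin-depleted and 35.8 and 36.0 CPM in non-depleted libraries. Cd81 shares 104 exon bases with R74862, at 1.97 and 1.97 CPM in insulin-depleted and 1.32 and 1.82 CPM in non-depleted libraries. Cd9 shares 218 exon bases with Gm26728 and St8sia1 149 with Gm7457, and both partners stayed at or below 0.308 CPM. Of the 31-base stretches of Cd9, 20.1% were found in other genes, among them the pseudogene Cd9-ps, which had 0 counts. For Cd24a the share was 4.98%, in the genes Gm6212 and Gm15352 at or below 0.103 CPM, and for Ucn3 and Cfap126 it was 0.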

How the data were processed

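Gene counts from bulk RNA sequencing of islets were deposited by the authors as 1 table of whole-number counts without normalization. The deposited non-depleted columns, whose headers mention size, were handled in the unit of expected counts, and since all their values are whole numbers, rounding changed nothing. These columns were assigned to their libraries as those without the insulin-depletion tag, by the final number. STAR 2.7.11b, cutadapt 4.8 and the builds GRCm38 and mm10 appear, with no role stated, per the submitters' processing notes. The counter and its use of strand and of multi-mapping reads were not given in the sources used here. All 55536 rows matched GENCODE M21, which gave coordinates and exon lengths. Among counts of 2 to 9, 80.0 to 84.0% were even.

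After filterByExpr and TMM scaling, genes were tested over the whole table on group alone with edgeR 4.0.16 (estimateDisp, robust glmQLFit, glmQLFTest; R 4.3.3), with Benjamini-Hochberg adjustment over 19723 genes and a threshold of 0.05. Standard errors came from the fold change and the F statistic. DESeq2 1.42.0, limma-voom (limma 3.58.1), no filter, totals without insulin, counts divided by 2, a replicate term and leaving out each library were alternatives. The edgeR step was tested on simulated data that held no difference between replicate numbers. It therefore does not tell which changes could be found in these libraries. With 2 against 2 libraries an exact two-sided permutation p cannot fall below 0.333, so none is given. Counting intervals are exact Clopper-Pearson intervals at 95%.

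The members, the 9 pathway and 11 cell type lists and the tests were chosen with earlier results of these data known. Named list genes are the 2 most abundant, any called, and the lowest and highest fold change at a mean of at least 5 CPM, with further ones named for their role after their values were seen. Ero1b, Bmal1 and Tmem27 were listed but matched no row by symbol; Arntl, the other name of Bmal1, did. No cell type list held a called gene: the median log2 fold changes were -0.0046 for beta, -0.029 for alpha, -0.0065 for delta and gamma, -0.0053 for acinar, -0.030 for ductal, -0.0080 for endothelial, 0.015 for stellate and fibroblast, -0.070 for immune, -0.065 for Schwann, 0.086 for erythroid and -0.0046 for tuft markers.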

Additional observations from a re-analysis of the deposited data

How the results depend on the processing

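Across 10 alternatives, 0 members and 0 list genes were called, and the smallest adjusted p of a member was 0.999. The 80 member values under alternatives included 20 of the other sign, all not called. Cd9 stood at -0.041 with limma-voom, -0.0028 without a filter and -0.0032 on counts divided by 2, and Trpm5 at -0.042 with limma-voom. Leaving out 1 library unbalances the replicate numbers and gave log2 fold changes from -0.093 to 0.060 for Ucn3, -0.35 to 0.14 for Cfap126, -0.32 to 0.36 for Cd9, -0.16 to 0.042 for Cd81, -0.16 to 0.22 for St8sia1, -0.76 to 0.57 for Aldh1a3, -0.22 to 0.26 for Trpm5 and -0.27 to 0.20 for Cd24a. With the replicate number as a block, 9 genes were called against 2 on group alone, with 0 members among them. The interval of every member was then narrower than on group alone. On the log2 scale it ran from -0.27 to 0.36 for Aldh1a3, from -0.068 to 0.096 for Cd9 and from -0.093 to 0.038 for Cd24a. Deviations of same-numbered libraries correlated at 0.41 across genes, but the labels do not tie the numbers to animals. Counts of neighbours apart, 5 per kb of exon, became 4 per kb of the longest transcript. Depth limits Aldh1a3 and Cfap126 most, at 58 and 124 counts in insulin-depleted replicate 1.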
